A study of Mus musculus with 4 samples.

Results

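The inflammasome genes described here are 9 genes out of the 55335 in the deposited tables: the sensors Nlrp3, Nlrc4, Aim2 and Nlrp1b, the adaptor Pycard, the caspases Casp1 and Casp4, the pore-forming protein Gsdmd and the cytokine Il18. They were taken by name, not by their values, and all 9 were found in the tables. RNA was sequenced from cells labelled as CD4+ T cells of the dorsal skin of mice aged 8 to 12 weeks, given 5% imiquimod cream daily for 5 days at 15 or 62.5 mg. The 2 control libraries came from Mettl3fl/fl mice, which carry floxed alleles of the m6A methyltransferase Mettl3, and the 2 knockout libraries from Mettl3fl/fl;Cd4-Cre mice, which also carry Cre recombinase driven by the Cd4 promoter and active in developing T cells. All 4 libraries came from imiquimod-treated skin, so none shows untreated cells. The number of mice behind a library, and which mouse received which amount of cream, are not given in the sources used here.

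An inflammasome is a cytosolic complex that forms when a sensor detects a microbial product or cell damage. NLRP3 responds to ion loss and membrane damage, NLRC4 to bacterial proteins handed to it by NAIP partners, AIM2 to double-stranded DNA in the cytosol, and NLRP1B to bacterial proteases. Sensors recruit caspase-1 directly or through the adaptor ASC, the product of Pycard, and caspase-1 matures interleukin-1 beta and interleukin-18 and cleaves gasdermin D, which opens pores in the cell membrane. Mouse Casp4 encodes the protein also known as caspase-11, which binds bacterial lipopolysaccharide and cleaves gasdermin D without a sensor of the NLR family. In skin these genes are best known from macrophages, neutrophils and keratinocytes.

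How much of each gene could be counted differed widely, because a fragment that touched more than 1 annotated exon entry was left out of the tables. Of the 279 exon entries of the 9 genes, 184 share their coordinates with another entry, 235 have no base of their own, and 34 held fragments. The countable bases, meaning those covered by 1 entry alone, came to 2967 for Pycard, 2534 for Casp4, 1683 for Nlrc4, 1092 for Casp1, 863 for Aim2, 761 for Gsdmd, 320 for Nlrp1b, 171 for Il18 and 107 for Nlrp3. Levels of different genes can therefore be compared only per countable kilobase, and then roughly.

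Over all 4 libraries, 3881 fragments were counted for the 9 genes, and 1612 of them (41.5%) lay in entries whose own bases fall outside the exons of protein-coding transcripts in GENCODE M21. Such entries belong to retained-intron, decay or non-coding transcripts, or lie between the exons of the gene's protein-coding transcript. This share was 99.5% for Casp1, 68.0% for Casp4, 62.0% for Aim2 and 43.5% for Gsdmd, and it was 0 of 776 fragments for Pycard and 0 of 664 for Nlrc4.

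**Figure D1:**
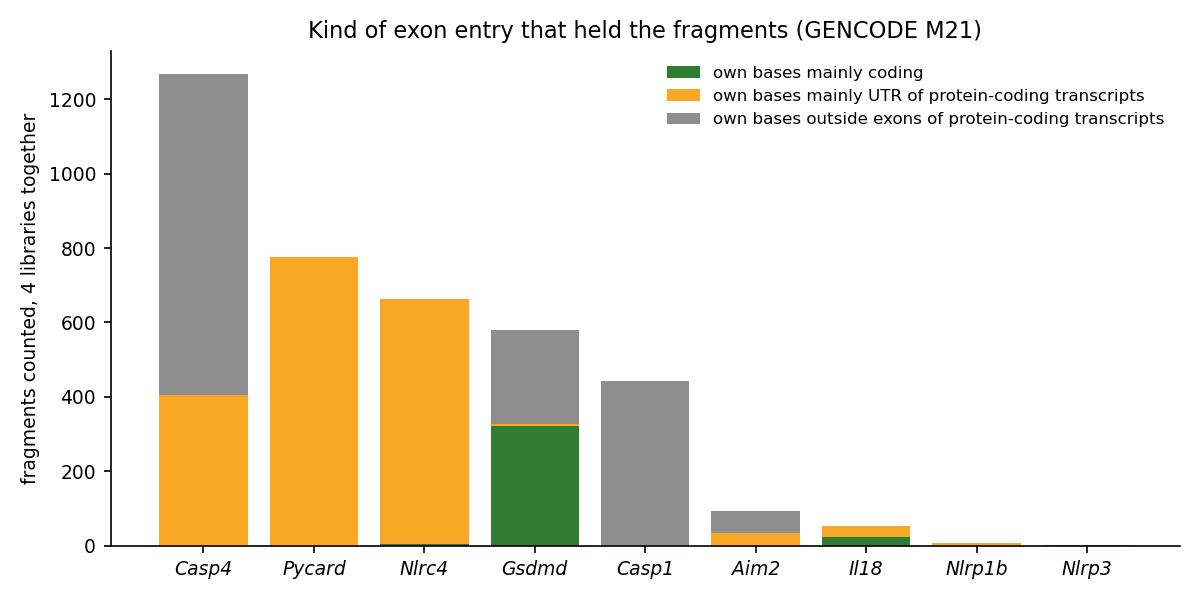
Fragments counted per inflammasome gene (y axis, number of fragments summed over the 4 libraries), split by what GENCODE M21 gives for the bases that only that exon entry covers. Gsdmd has 323 fragments in mainly coding entries, Casp1 has 441 of its 443 fragments outside exons of protein-coding transcripts, and Nlrp3 has 2 fragments in all.

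Gsdmd was the gene with most of its fragments in entries whose own bases are mainly coding. The exon with most of them is printed here because the level of Gsdmd rests on it: the entry held 279 of the 579 fragments, and capitals mark the 111 bases that no other entry covers. A fragment counted there touched no other exon entry, so any longer than 111 bases also held sequence outside the annotated exons. The entry is exon 3 of Gsdmd-201, on the plus strand of GRCm38 at chr15:75864244-75864436, with its sequence from GENCODE M21.
Gsdmd exon: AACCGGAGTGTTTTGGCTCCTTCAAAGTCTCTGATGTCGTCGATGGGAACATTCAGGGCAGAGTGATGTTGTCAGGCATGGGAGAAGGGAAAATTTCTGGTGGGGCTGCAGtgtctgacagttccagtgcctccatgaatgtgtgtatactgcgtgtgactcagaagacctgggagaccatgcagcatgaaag

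For Il18, 22 of 52 fragments were counted in a coding exon of 12 bases, chr9:50577537-50577548 of Il18-201, which takes the place of another exon of 12 bases, chr9:50576694-50576705, in other transcripts such as Il18-202. They are shown because so short an exon could be counted at all only with fragments that touched no neighbouring exon entry. Any such fragment longer than 12 bases also held sequence outside the annotated exons. The exons are on the plus strand of GRCm38 and differ at 7 of 12 positions.
Il18-201 exon: ggcaggaggctg
Il18-202 exon: ctgaagaaaatg

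Promoters were searched for 3 motifs in the 250 bases before the RefSeq start (GRCm38.p6), which were at hand for 8 of the 9 genes. The motifs were GGG and TTTCC with any 2 bases between them, bound by NF-kB, GAAA and GAAA with any 2 bases between them, the interferon-stimulated response element, and AGGAAGT, bound by PU.1 and other ETS factors, each on both strands. Of 32851 promoters, 1.41% held the NF-kB motif, 2.98% the interferon motif and 7.69% the ETS motif. Casp4 was the only one of the 8 genes with the NF-kB motif, at 2 places that begin 93 and 14 bases before the start. None of the 8 held the interferon motif, and Nlrc4, Pycard, Aim2 and Nlrp1b held the ETS motif, with 2 matches in Nlrc4. For Nlrp1b, the promoter at its counted exon entry (71201148 to 71201456) had 0 matches, and another RefSeq promoter had 1. No counted exon entry of Aim2 overlaps the stretch at 173420354 to 173420653 that holds its searched promoter. The promoters of Casp4 (plus strand, chr9:5308599-5308848) and Nlrc4 (minus strand, chr17:74459109-74459358) are printed because these are the better counted of the genes for which both knockouts lay above both controls. Capitals mark the NF-kB motif in Casp4 and the ETS motif in Nlrc4. A match describes the letters and is not evidence of binding.
Casp4 promoter: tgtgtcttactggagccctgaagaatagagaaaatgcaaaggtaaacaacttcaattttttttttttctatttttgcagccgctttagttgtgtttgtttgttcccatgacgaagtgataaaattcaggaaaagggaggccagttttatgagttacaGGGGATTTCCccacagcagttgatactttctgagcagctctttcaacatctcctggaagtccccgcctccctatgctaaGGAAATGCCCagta
Nlrc4 promoter: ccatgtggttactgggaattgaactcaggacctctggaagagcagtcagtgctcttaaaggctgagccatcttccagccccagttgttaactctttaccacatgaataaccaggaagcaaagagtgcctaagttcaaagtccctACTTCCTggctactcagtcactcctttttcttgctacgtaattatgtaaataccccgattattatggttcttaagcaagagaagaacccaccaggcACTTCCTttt

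The libraries held 3614418 to 4537006 counted fragments, and the limit that a count of 0 sets was 0.655 to 0.792 CPM (3 fragments per library). CPM, the unit of all levels below, are fragments scaled to a common library total with TMM factors. Intervals and such limits cover counting error only. Mettl3 had 195 and 49 fragments in controls 1 and 2 and 121 and 158 in knockouts 1 and 2, none of them in exons of protein-coding transcripts, so the deletion was not checked by these counts. Control 2 stood apart: 4064 of the 12434 genes tested (32.7%) had no fragment in it, against 221 to 860 in the other libraries, and keratinocyte markers summed to 20900 CPM in it against 845.1 to 1946 elsewhere. Control 1 and knockout 2 held Y-linked transcripts, 76 and 118 fragments, and the other libraries 1 and 0. Results that rest on control 2 are given with and without it.

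Inflammasome genes took up a small share of every library, with 0.0182% and 0.0195% of fragments in controls 1 and 2 and 0.0319% and 0.0223% in knockouts 1 and 2. Their summed level was 180.3 and 186.4 CPM in the controls and 343.7 and 229.8 CPM in the knockouts. Both knockouts were thus above both controls in the sum, with knockout 1 the highest. With 235 of the 279 exon entries lacking a base of their own, the small share says little about expression. The mean levels of Casp4, Pycard, Nlrc4, Gsdmd and Casp1 were 76.6, 48.0, 39.9, 34.3 and 27.0 CPM. These lay above the median of 16.5 CPM over all genes tested, and Aim2 and Il18, at 5.51 and 3.17 CPM, lay below it. In RNA from many cells, fewer cells of a type and less RNA per cell cannot be told apart.

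**Figure D2:**
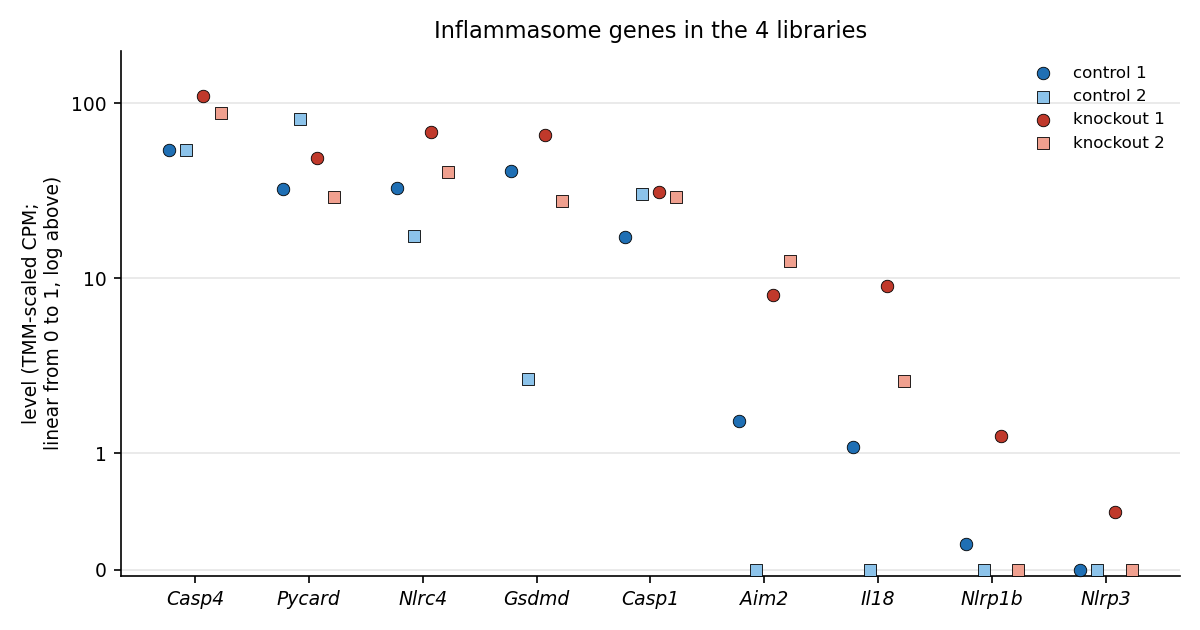
Level of each inflammasome gene in each library (y axis, TMM-scaled CPM, linear from 0 to 1 and logarithmic above), with control libraries in blue and knockout libraries in red and genes ordered by mean level. Casp4 and Nlrc4 have both knockouts above both controls, control 2 is lowest for Gsdmd and highest for Pycard, and Nlrp1b and Nlrp3 stay near 0.

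Among the sensors, Nlrc4 was the best counted. Nlrc4 (ENSMUSG00000039193, GRCm38 chromosome 17, 74425438 to 74459142, minus strand) had 151 and 66 fragments in controls 1 and 2, and 275 and 172 in knockouts 1 and 2 (32.96, 17.4, 68.6 and 40.7 CPM in the same order). Both knockouts lay above both controls, and the gap between the lower knockout and the higher control was smaller than the gap within either genotype. The control mean was 25.2 ± 10.99 CPM and the knockout mean 54.6 ± 19.8 CPM (SD, n = 2 each), for a log2 fold change of 1.12 (standard error 1.02), and 0.72 without control 2. The last exon, 74425438 to 74427134, whose countable bases are 3′ UTR, held 94.0% of the fragments over all libraries. In control 2 that share was 63.6% (exact 95% interval 50.9 to 75.1), and the 5′ exon at 74453053 to 74453166 held 28.8% (18.3 to 41.3), against 0.662% in control 1, 1.45% in knockout 1 and 0 of 172 fragments in knockout 2. A predicted gene, CT033749.1, lies on the same strand inside Nlrc4 and had 60, 78, 68 and 70 fragments of its own in the same order of libraries.

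Aim2, the DNA sensor, was near the detection limit in controls and counted in both knockouts. Aim2 (ENSMUSG00000037860, chromosome 1, 173350879 to 173466040, plus strand) had 7 and 0 fragments in controls 1 and 2, and 32 and 53 in knockouts 1 and 2 (1.53, 0, 7.99 and 12.5 CPM in the same order). The pooled ratio of knockouts over controls was 12.3, with a counting interval of 5.74 to 31.6 that leaves out the spread between libraries. Aim2 passed the filter on low counts through the knockouts, so this ratio gives no support to a difference. The log2 fold change was 3.68 (standard error 2.36), and 2.72 without control 2. No counted entry of the gene had coding bases of its own, and different entries carried the knockouts. In knockout 2, 32 fragments lay in the first exon (173350879 to 173350973), which had 1 fragment in control 1 and 0 in the others. That exon lies within Cadm3, a gene on the opposite strand with 174 and 0 fragments in controls 1 and 2 and 26 and 73 in knockouts 1 and 2, and the counting did not use strand. In knockout 1, 15 fragments lay in an entry of a non-coding transcript (173455829 to 173456165) that had none in the other libraries. The entry at 173419196 to 173419555 had 6, 0, 15 and 21 fragments, the one place where both knockouts were counted and above both controls. Aim2 belongs to a family of similar genes, and fragments with several mapping places were left out, so its level is uncertain.

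Nlrp3 and Nlrp1b could hardly be measured. Nlrp3 (ENSMUSG00000032691, chromosome 11, 59541568 to 59566956, plus strand) had 2 fragments in knockout 1 and 0 in the other libraries. With 22 of its 25 entries lacking a base of their own, a low count says little about the level of the gene. Nlrp1b (ENSMUSG00000070390, chromosome 11, 71153102 to 71230733, minus strand) had 1 fragment in control 1, 5 in knockout 1 and 0 in control 2 and knockout 2, and 67 of its 70 entries had no base of their own. Neither passed the filter on low counts. No difference was detectable at this depth for either gene.

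Pycard, the adaptor that links sensors to caspase-1, was the one tested member with a negative fold change. Pycard (ENSMUSG00000030793, chromosome 7, 127989708 to 127993867, minus strand) had 149 and 309 fragments in controls 1 and 2, and 194 and 124 in knockouts 1 and 2 (32.5, 81.6, 48.4 and 29.3 CPM in the same order). Control 2 was the highest and knockout 2 the lowest, and control 1 lay between the knockouts. The control mean was 57.0 ± 34.7 CPM and the knockout mean 38.9 ± 13.5 CPM (SD, n = 2 each). On the log2 scale the fold change was -0.55 (standard error 1.00), and it turned to 0.25 without control 2, the library with the highest keratinocyte markers. The part of that library's composition in the result was not tested. All 776 fragments lay in 1 entry at the 3′ end (127989708 to 127992965) whose own bases are UTR, and its annotated end in GENCODE reaches 1665 bases past the end of the gene in RefSeq.

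The caspase genes Casp1 and Casp4 lie next to each other on chromosome 9, with 1537 bases between them. Casp1 (ENSMUSG00000025888, 5298508 to 5307290, plus strand), the protease that all canonical inflammasomes activate, had 79 and 115 fragments in controls 1 and 2, and 125 and 124 in knockouts 1 and 2 (17.2, 30.4, 31.2 and 29.3 CPM in the same order). Control 1 was the lowest, and control 2 lay between the knockouts. The means were 23.8 ± 9.27 and 30.3 ± 1.33 CPM in controls and knockouts (SD, n = 2 each), with a log2 fold change of 0.35 and a standard error of 1.11, or 0.80 without control 2 and 0.06 without control 1. Of the 443 fragments, 440 came from 3 entries whose own bases lie between exons of Casp1-201. These values therefore describe fragments from introns of that transcript, and its exons were hardly counted.

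Casp4, the gene of caspase-11, had the most fragments of the 9 genes, not corrected for countable bases, with both knockouts above both controls. Casp4 (ENSMUSG00000033538, 5308828 to 5336783, plus strand) had 247 and 206 fragments in controls 1 and 2, and 443 and 371 in knockouts 1 and 2 (53.9, 54.4, 110.6 and 87.7 CPM in the same order). The totals of the controls were close to each other, though they came from different parts of the gene, and both knockouts were above them. The control mean was 54.1 ± 0.324 CPM and the knockout mean 99.1 ± 16.2 CPM (SD, n = 2 each), for a log2 fold change of 0.87 (standard error 0.75). It lay between 0.74 and 1.10 with 1 library left out, and it was 1.55 without retained-intron exons and 0.96 over exons of protein-coding transcripts.

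The near-equal totals of Casp4 in the controls came from different parts of the gene. A retained-intron entry at 5321426 to 5321740 held 63.6% of the fragments of control 2 (exact 95% interval 56.6 to 70.2), against 7.29% (4.38 to 11.3) in control 1. The knockouts had 11.5% (8.69 to 14.9) and 3.77% (2.08 to 6.25) there. The 3 entries at 5323348 to 5323798, 5327176 to 5328357 and 5328433 to 5329253, in other introns, had 0 fragments in control 2 and from 28 to 131 in the other libraries. The last exon, 3′ UTR at 5336535 to 5336783, had 65 and 73 fragments in controls 1 and 2, and 94 and 161 in knockouts 1 and 2 (14.2, 19.3, 23.5 and 38.1 CPM in the same order). There, too, both knockouts lay above both controls, but knockout 2 was the highest, whereas knockout 1 was the highest over the whole gene.

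**Figure D3:**
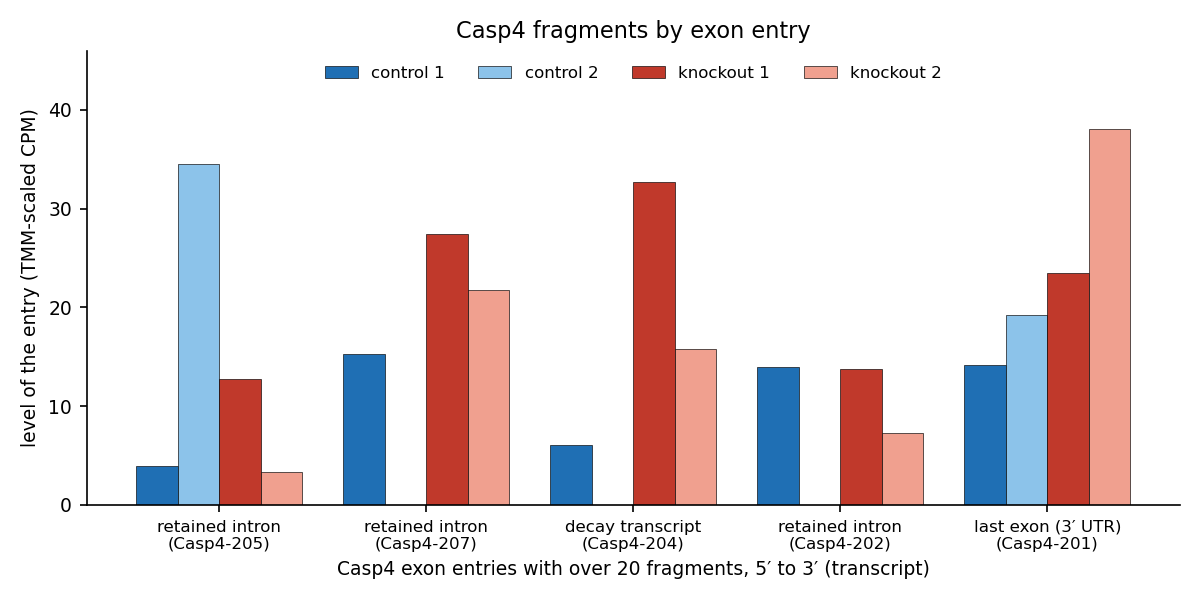
Level of each Casp4 exon entry with over 20 fragments (y axis, TMM-scaled CPM of the entry), in order from 5′ to 3′, with a bar for each library. Control 2 reaches 34.6 CPM in the first entry and has no fragment in the 3 entries after it, and the last exon ranges from 14.2 CPM in control 1 to 38.1 CPM in knockout 2.

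Gsdmd, whose cleaved product forms the membrane pore, varied more between the libraries of a genotype than between the genotypes. Gsdmd (ENSMUSG00000022575, chromosome 15, 75862327 to 75867408, plus strand) had 187 and 10 fragments in controls 1 and 2, and 265 and 117 in knockouts 1 and 2 (40.8, 2.64, 66.1 and 27.7 CPM in the same order). Control 2 was the lowest and control 1 lay between the knockouts. The control mean was 21.7 ± 27.0 CPM and the knockout mean 46.9 ± 27.2 CPM (SD, n = 2 each). On the log2 scale the fold change was 1.11 (standard error 1.53), and it was 0.19 without control 2 and 4.2 without control 1. The coding exon printed above had 91 and 0 fragments in controls 1 and 2 and 133 and 55 in knockouts 1 and 2, the same ranking of libraries as the whole gene. In control 2, 8 of the 10 fragments lay in a retained-intron entry (75866590 to 75866863), 80.0% with an exact 95% interval of 44.4 to 97.5.

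Il18, a cytokine stored as a precursor that caspase-1 activates, was counted in 3 libraries, with few fragments and few countable bases. Il18 (ENSMUSG00000039217, chromosome 9, 50554827 to 50581840, plus strand) had 5 and 0 fragments in controls 1 and 2, and 36 and 11 in knockouts 1 and 2 (1.09, 0, 8.99 and 2.60 CPM in the same order). Both knockouts lay above both controls, mainly knockout 1. The pooled ratio of knockouts over controls was 9.55, with a counting interval of 3.82 to 30.8 that leaves out the spread between libraries. Il18 passed the filter on low counts through the knockouts, so this ratio gives no support to a difference. The log2 fold change was 3.32 (standard error 2.47), or 2.37 without control 2. The first exon (50554827 to 50554977) had 4 and 0 fragments in controls 1 and 2 and 19 and 5 in knockouts 1 and 2, and it lies within Bco2, a gene on the opposite strand. The exon of 12 bases printed above had 1, 0, 16 and 5 in the same order. With 171 countable bases, these counts cover little of the transcript.

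Per countable kilobase the order of the genes changed between libraries. Gsdmd was the highest in control 1 at 53.6 CPM per kilobase, in knockout 1 at 86.9 and in knockout 2 at 36.4, but it was at 3.47 in control 2. Casp4 was at 21.3, 21.5, 43.6 and 34.6 CPM per kilobase in control 1, control 2, knockout 1 and knockout 2, and Nlrc4 at 19.6, 10.4, 40.8 and 24.2. Casp1 was at 15.8, 27.8, 28.6 and 26.8 CPM per kilobase, and Pycard at 10.96, 27.5, 16.3 and 9.88. Il18, from few fragments over 171 countable bases, was at 6.38, 0, 52.6 and 15.2, which in knockout 1 was above Casp4 and Nlrc4. The ranges of Casp4, Nlrc4, Casp1 and Pycard over the libraries overlap, so these genes cannot be ranked beyond their spread. The counted sequence also differs in kind. The share of fragments outside exons of protein-coding transcripts was 99.5% for Casp1, 68.0% for Casp4 and 0 for Pycard and Nlrc4.

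No inflammasome gene passed the threshold between the genotypes. Of the 9 genes, 7 passed the filter on low counts, and Aim2 and Il18 did so through the knockouts, where they were higher. Each of the 7 had an adjusted p of 0.9997 (edgeR quasi-likelihood test, Benjamini-Hochberg adjustment over 12434 genes). Of all genes tested, 0 passed (0%), 187 had an unadjusted p under 0.05 (1.5%), none of them an inflammasome gene, and DESeq2 called 17 and limma-voom 0. DESeq2 gave no adjusted p for Aim2 and Il18, and called none of the other 5. The lowest adjusted p over the alternatives came, for each of the 7, from the edgeR fit without control 1, where control 2 is the lone control and is assumed to vary like the knockouts, and where 4584 genes had an unadjusted p under 0.05. It was 0.081 for Aim2, 0.092 for Gsdmd, 0.152 for Il18, 0.251 for Nlrc4, 0.370 for Casp4, 0.371 for Pycard and 0.963 for Casp1, and in the other edgeR, DESeq2 and limma-voom fits that gave one it was at least 0.9148. With 2 libraries against 2, an exact two-sided permutation test of a single gene cannot go below 0.333.

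Log2 fold changes were positive for 6 of the 7 tested genes and their median was 1.11, beside 56.9% positive and a median of 0.20 over all genes tested. For 4 of the 7, namely Casp4, Nlrc4, Aim2 and Il18, both knockouts lay above both controls, which was so for 19.5% of all genes tested. Both knockouts lay below both controls for none of the 7, and for 11.2% of all genes. Without control 2, 5 of the 7 genes had both knockouts above control 1, beside 28.8% of all genes, with Casp1 added to the 4. The passage of Aim2 and Il18 through the filter depended on their knockout values, so these counts give no support to a difference.

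**Figure D4:**
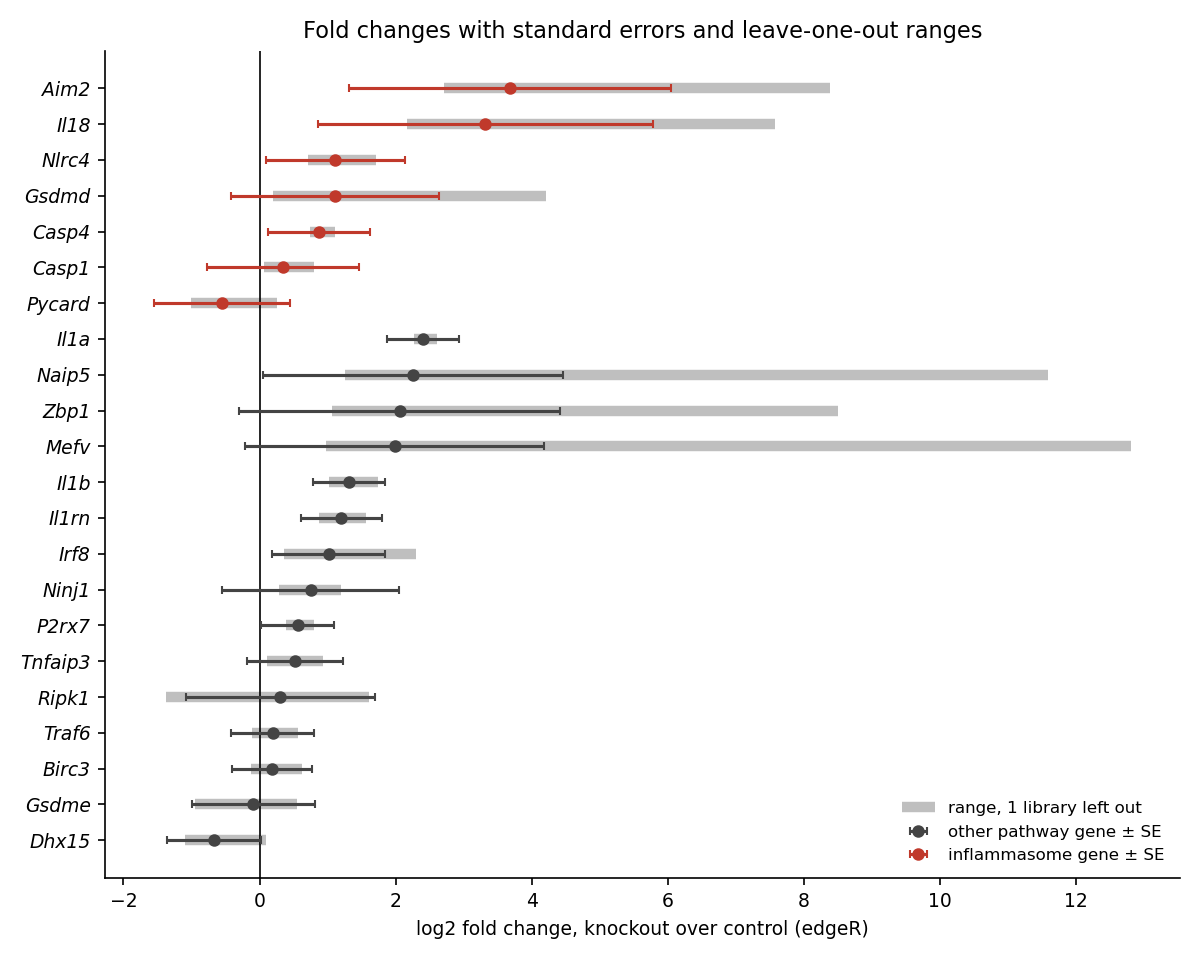
Log2 fold change of knockout over control libraries (x axis, edgeR) with its standard error for the 7 tested inflammasome genes in red and 15 other genes of the pathway in grey, and the range with 1 library left out as a light bar. The bars of Aim2, Il18, Mefv, Naip5 and Zbp1, which had no fragment in control 2, reach far to the right, and those of Casp4 and Il1a are short.

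Other genes of the pathway were read from 6 lists of 69 genes, 44 of them tested. None passed the threshold, 32 had a positive and 12 a negative log2 fold change, the median was 0.52, 15 had both knockouts above both controls and 3 below. These counts, and those of each list below, can be read beside the shares of all genes tested. Those were 56.9% positive, 19.5% with both knockouts above both controls and 11.2% with both below. Of the 44, 12 had no fragment in control 2, beside 32.7% of all genes tested, and 3 had none in knockout 2.

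Other sensors had no fragment at all in control 2. Of 12 listed, 4 were tested, all with a positive log2 fold change, and the list summed to 159.8 and 0 CPM in controls 1 and 2 and 401.3 and 269.5 in knockouts 1 and 2. Mefv, which encodes pyrin, a sensor of bacterial toxins that act on RhoA, was at 110.9, 0, 241.1 and 197.9 CPM in the same order. Naip5, which binds flagellin and activates NLRC4, was at 39.3, 0, 126.3 and 61.5 CPM, and has near-identical relatives, so its counts are uncertain. Zbp1, a sensor of Z-form nucleic acids, was at 5.24, 0, 11.98 and 10.2 CPM. Without control 2 the log2 fold changes were 0.98 for Mefv, 1.25 for Naip5 and 1.07 for Zbp1, down from 1.98, 2.25 and 2.06.

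Other gasdermins and proteins of membrane rupture numbered 10, of which 2 were tested. Gsdme, another pore-forming gasdermin, had counts of 278 and 305 in controls and of 390 and 149 in knockouts, with a log2 fold change of -0.09 and a standard error of 0.90. Ninj1, which drives membrane rupture after pore formation, had counts of 46 and 59 in controls and of 59 and 120 in knockouts (0.75, standard error 1.30), and the log2 fold change was 2.86 over exons of protein-coding transcripts. The groups overlapped for both. Of the 6 other caspases and death kinases, 5 were tested and none had groups that did not overlap. Ripk1, a kinase of death receptor signalling, had 192 and 43 fragments in controls 1 and 2 and 223 and 43 in knockouts 1 and 2.

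Activators and cofactors numbered 18, with 12 tested, 9 of them positive and 6 with both knockouts above both controls. P2rx7, the ATP-gated channel whose opening activates NLRP3, was at 259.5 and 206.2 CPM in controls 1 and 2 and 332.0 and 354.1 CPM in knockouts 1 and 2, a log2 fold change of 0.56 (standard error 0.53). Dhx15, an RNA helicase, had counts of 728 and 1456 in controls and of 560 and 860 in knockouts (-0.66, standard error 0.69). Irf8, a transcription factor of myeloid cells, had counts of 891 and 201 in controls and of 1234 and 812 in knockouts (1.01, standard error 0.83). Its log2 fold change was 0.35 without control 2 and 2.30 without control 1.

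Inhibitors numbered 12, with 11 tested, 9 of them positive and 4 with both knockouts above both controls. Il1rn, the antagonist that occupies the interleukin-1 receptor, was at 141.5 and 121.4 CPM in controls 1 and 2 and 370.4 and 233.8 CPM in knockouts 1 and 2, with a log2 fold change of 1.20 and a standard error of 0.60. Birc3, an inhibitor of apoptosis, had counts of 1338 and 691 in controls and of 1256 and 949 in knockouts (0.18, standard error 0.59). Tnfaip3, which restrains NF-kB, had counts of 390 and 369 in controls and of 665 and 404 in knockouts (0.52, standard error 0.70), with 95.7% of its fragments in retained-intron exons and a value of 1.95 without those exons.

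The cytokine that inflammasomes mature, interleukin-1 beta, was counted far more than any inflammasome gene. Il1b was at 1549 and 993.3 CPM in controls 1 and 2 and 3812 and 2527 in knockouts 1 and 2, with a log2 fold change of 1.32 and a standard error of 0.53 (adjusted p = 0.9997 by edgeR), or 1.03 without control 2. Il1a was at 146.5 and 121.4 CPM in controls 1 and 2 and 740.8 and 676.6 CPM in knockouts 1 and 2, for 2.40 on the log2 scale (standard error 0.53, adjusted p = 0.9997 by edgeR). It was the only one of the 44 tested pathway genes with an unadjusted p under 0.05. Traf6, an adaptor of the interleukin-1 receptor, had counts of 725 and 938 in controls and of 1130 and 767 in knockouts. Of the 11 genes of interleukin-1 and interleukin-18 signalling, 10 were tested, 5 positive and 5 negative, with both knockouts above both controls for 2 and below for 3.

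Markers of the labelled cell type summed to less than macrophage and monocyte markers in every library. These sums are not corrected for countable bases, which are not given here for markers, so they compare cell types only roughly. A marker at 0, here or below, may have few countable bases. Per the labels, dermal cells were stained for CD4 and CD45, and fibroblasts and keratinocytes carry neither. Markers of T cells (14 genes) summed to 1112 and 330.2 CPM in controls 1 and 2 and 315.5 and 165.5 in knockouts 1 and 2, with Cd247, Cd4, Cd5, Lck and Zap70 at 0 fragments in control 2 and Cd247, Cd5 and Lck at 0 in knockout 2. Of all genes tested, 32.7% had no fragment in control 2 and 6.92% had none in knockout 2. Macrophage and monocyte markers (12 genes) summed to 19450, 9171, 31610 and 27860 CPM in the same order, none of them at 0 in any library. All 12 had a positive log2 fold change and 9 had both knockouts above both controls, and all 14 T cell markers had a negative one, 6 with both knockouts below both controls. Over all genes tested, 56.9% had a positive log2 fold change, 19.5% had both knockouts above both controls and 11.2% had both below. Both knockouts lay above both controls in the macrophage sum, as for Casp4, Nlrc4, Aim2, Il18 and Il1b. This was not so for Casp1, Gsdmd and Pycard. The full ranking of the libraries in the macrophage sum was shared by Nlrc4, Il18 and Il1b, and its share over all genes was not counted. That ranking was not particular to macrophage markers, since the neutrophil sum, Il1rn, Mefv, Naip5 and Zbp1 had it too.

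Neutrophil markers (8 genes) summed to 368.5 and 251.0 CPM in controls 1 and 2 and 1580 and 741.4 CPM in knockouts 1 and 2, and S100a9 and Ly6g had 0 fragments in every library. Most of that sum was Mmp8, at 342.7 and 231.5 CPM in controls 1 and 2 and 1527 and 642.8 CPM in knockouts 1 and 2. Of the 3 tested, Mmp8 and S100a8 had both knockouts above both controls, and Mmp9 had a negative log2 fold change. Dendritic cell markers (7 genes) summed to 1529 and 220.1 CPM in controls 1 and 2 and 1100 and 611.3 CPM in knockouts 1 and 2, with 5 of the 7 at 0 in control 2. Fibroblast markers (7 genes) were at 12030, 2583, 5598 and 5700 CPM in control 1, control 2, knockout 1 and knockout 2. Mast cell markers (6 genes) were at 170.9, 97.4, 135.0 and 374.5 CPM and endothelial markers (5 genes) at 26.9, 6.34, 18.5 and 37.1 CPM. The part of myeloid or other cells in the levels of the inflammasome genes was not tested.

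**Figure D5:**
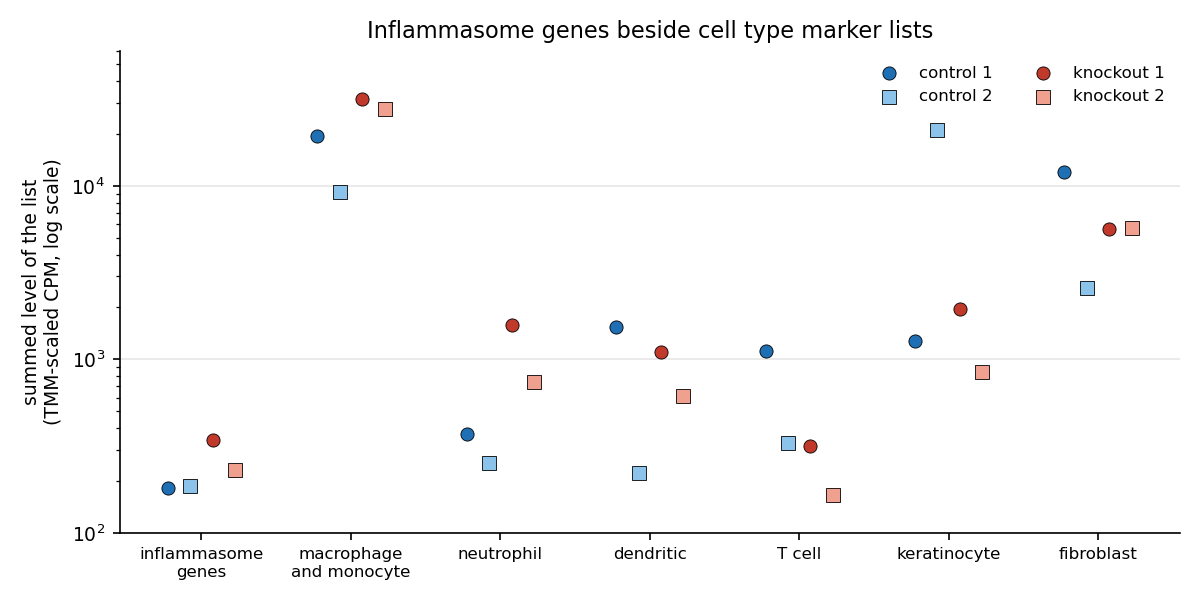
Summed level of the 9 inflammasome genes and of 6 cell type marker lists in each library (y axis, TMM-scaled CPM, log scale), with control libraries in blue and knockout libraries in red. The inflammasome, macrophage and neutrophil sums are each higher in both knockouts than in both controls. Most of the neutrophil sum is Mmp8, and control 2 has 20900 CPM of keratinocyte markers.

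Over the 4 libraries, the genes most like Casp4 in pattern were Ing4, Foxn2 and Clk1, among 8257 genes searched. Their root mean square differences from Casp4 in centred log2 CPM were 0.054, 0.064 and 0.072. Foxn2, for example, was at 140.8 and 137.0 CPM in controls 1 and 2 and 297.0 and 209.2 CPM in knockouts 1 and 2. With 4 libraries many genes share such a pattern, and no p is given.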

How the data were processed

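RNA of 4 libraries was reverse transcribed from an oligo-dT primer and amplified by SMART, per the labels' protocols. The authors deposited raw fragment counts per exon entry. Per the file headers, featureCounts 2.0.1 counted read pairs by exon entry, without strand, on GRCm38 alignments and GENCODE M23. Trim Galore 0.6.7 and STAR 2.7.9a are named in the submitters' processing notes. Whether duplicates were removed is not stated: the alignment names contain sambamba, without its settings. Of 841606 entries, 545099 (64.8%) share coordinates with another entry and held 0 fragments, so a gene's count comes from the rest. The tables were compared with GENCODE M21, the annotation at hand, which holds 99.7% of the entries. Fragments overlapping several entries or mapped to several places were not counted, by the tool's default, and counts were unstranded.

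From the deposited counts, entries were summed per gene and matched to symbols for 55154 genes. Knockout and control libraries (2 each) were compared with edgeR 4.0.16 (R 4.3.3): TMM factors, genes kept by filterByExpr (minimum count 10), and the two-sided quasi-likelihood test without covariates, with p-values adjusted by Benjamini-Hochberg over 12434 genes and a threshold of 0.05. Standard errors were taken from the quasi-likelihood F. DESeq2 1.42.0, limma 3.58.1 (voom), other scalings and filters, left-out libraries, a Y-linked covariate (at least 50 Y-linked fragments) and other sets of exon entries were alternatives. Exact binomial intervals (95%) used scipy 1.17.1.

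The genes and lists were chosen with earlier results of these data known. Genes named are the 9 members, the 3 tested genes of highest mean CPM in each pathway list, Il1b, the 3 genes nearest to Casp4 in pattern (log2 CPM with prior count 2, mean of at least 5 CPM, no predicted genes), and Mettl3. Some genes that this rule names are not reported here. Libraries were numbered only to name them, and no label says how many mice each holds. Within each genotype 1 library held Y-linked transcripts and the other hardly any, so the libraries of a genotype do not hold the same set of mice. Their spread, which sets the p-values, can include technical differences.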

Additional observations from a re-analysis of the deposited data

How the results depend on the processing

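The count of genes past the threshold was 0 with edgeR. It was 27 without a low-count filter, 17 with DESeq2, and 0 to 4 with 1 library left out (2 without knockout 1 and 4 without knockout 2). Leaving out control 1 gave 0, with 4584 genes at an unadjusted p under 0.05. For the other alternatives the count was 0. None of the 22 genes with a log2 fold change followed here was called under the alternatives that gave it an adjusted p. DESeq2 gave none for Aim2 and Il18, and genes that failed a filter have no value there.

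Of the 22 genes, 2 changed sign under alternatives that keep all libraries: Gsdme (0.037 without a low-count filter) and Ripk1 (-0.48 without retained-intron exons, -0.45 over protein-coding exons). When single libraries were left out, log2 fold changes lay between -1.0 and 0.25 for Pycard, -0.95 and 0.54 for Gsdme, -1.38 and 1.60 for Ripk1, -1.10 and 0.10 for Dhx15, -0.13 and 0.63 for Birc3, and -0.11 and 0.56 for Traf6. The cause was not tested. Over protein-coding exons the log2 fold change was 2.86 for Ninj1, 2.00 for Tnfaip3 and 1.92 for Il1rn. With the Y-linked covariate it was 2.00 for Gsdmd, 5.09 for Mefv, 4.79 for Naip5 and 3.80 for Zbp1, and with limma-voom 1.82, 5.63, 5.12 and 3.63. The count of tested inflammasome genes with both knockouts above both controls was 4, beside 19.5% of all genes. In alternatives chosen after seeing the data it was 5 without control 1 (54.5% of all genes), 5 without control 2 (28.8%), 4 without knockout 1 (33.4%), 6 without knockout 2 (36.5%), 4 without retained-intron exons (16.8%) and 4 over protein-coding exons (10.9%). Each of these counts is out of the same 7 genes. Casp1 has no entry in M21 that could be counted, so it has no value over protein-coding exons. Aim2 has no log2 fold change there either, with 1 and 0 fragments in controls 1 and 2 and 2 and 32 in knockouts 1 and 2. The 4 over protein-coding exons still include Aim2, so they are not all among the 7537 genes tested there.

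No paired analysis was possible because the labels number no replicates. Low counts limit Nlrp3, Nlrp1b, Il18 and Aim2. Without control 2, the log2 fold changes of Gsdmd and Aim2 were 0.19 and 2.72.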
